A study of Mus musculus with 11 samples.

Results

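Laminins are the heterotrimeric glycoproteins, each made of an alpha, a beta and a gamma chain, that polymerize into the sheet on which a basement membrane is built. The chains described here are the 9 named by their gene symbols: the alpha chains Lama1, Lama2, Lama3, Lama4 and Lama5, the beta chains Lamb1, Lamb2 and Lamb3, and the gamma chain Lamc1. Of these 9 symbols, 8 had a row among the 24914 rows of each count file, and all 8 were among the 14380 loci tested. Lamb1 was not analysed here. The rule that takes them uses their names only.

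The mRNA of whole mouse kidneys was sequenced in a model of Alport syndrome. This hereditary kidney disease is caused by loss of the collagen IV network that contains the Col4a3 chain in the glomerular basement membrane. All mice were of the strain 129X1/SvJ and 5.5 weeks old. HET PBS are 3 libraries from mice carrying 1 intact Col4a3 allele (Col4a3+/-) given phosphate-buffered saline, KO PBS are 4 libraries from Col4a3-/- mice given the same vehicle, and KO antimiR-21 are 4 libraries from Col4a3-/- mice given an inhibitor of the microRNA miR-21. The controls thus carry the deletion on 1 allele too, and kidneys of mice with both alleles intact were not analysed here. The labels do not say that replicates came from separate animals, and p-values measure the spread between these samples. They give no sex, dose or treatment start.

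In the mature glomerulus, Lama5, Lamb2 and Lamc1 form the laminin trimer of the glomerular basement membrane, secreted by podocytes and endothelial cells, and Lamb2 is mutated in Pierson syndrome, a congenital nephrotic disease. During development that trimer follows one built with Lama1 and Lamb1. Lama2 and Lama4 are chains of mesangial, muscle and vascular basement membranes, and Lama3 and Lamb3 belong to the laminin that anchors epithelia. Laminin chains that the mature glomerular basement membrane lacks, Lama1 and Lama2 among them, have been described as protein in that of Alport kidneys.

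Of the 3 sequences shown here, the first is the target of the inhibitor, the mature microRNA miR-21a-5p (chr11:86584120-86584141, minus strand, GRCm38.p6, from RefSeq), with its seed, bases 2 to 8, in capitals. The other sequences are the promoters of Lama5 (chr2:180225810-180226109, minus strand) and Lamb2 (chr9:108479612-108479911, plus strand), 250 bases before to 50 bases after the start in RefSeq on GRCm38.p6, shown because these chains moved together from library to library. Capitals mark the GC box, GGGCGG or its reverse complement CCGCCC.
miR-21a-5p: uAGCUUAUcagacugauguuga
Lama5: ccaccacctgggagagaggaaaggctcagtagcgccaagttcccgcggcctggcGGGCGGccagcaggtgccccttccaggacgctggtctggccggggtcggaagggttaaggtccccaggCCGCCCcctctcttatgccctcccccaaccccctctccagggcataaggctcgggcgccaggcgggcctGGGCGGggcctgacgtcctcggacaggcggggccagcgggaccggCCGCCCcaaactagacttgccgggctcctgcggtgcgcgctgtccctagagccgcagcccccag
Lamb2: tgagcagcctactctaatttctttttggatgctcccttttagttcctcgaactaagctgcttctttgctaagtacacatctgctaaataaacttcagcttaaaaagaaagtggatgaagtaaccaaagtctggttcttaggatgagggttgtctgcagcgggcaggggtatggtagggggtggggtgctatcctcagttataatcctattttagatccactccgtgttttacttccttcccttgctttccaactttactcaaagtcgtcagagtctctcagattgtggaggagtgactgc

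The Lama5 window held 4 GC boxes and was 72.67% G and C, and the Lamb2 window held 0 and was 44% G and C. Of the 32851 promoters of the same length in the table, 35.66% held at least 1 GC box on either strand, and the median content of G and C was 52.67%. The table held a promoter for 4 of the 8 chains, the other 2 being Lama2 and Lamb3. A match describes these letters only.

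The 7-base complement of the miR-21 seed, ATAAGCT, was searched for in the longest annotated 3′ UTR of each gene, on the transcribed strand. None of the 8 chains held it (0 of 8), and none held the 6-base core TAAGCT, in UTRs of 110 bases (Lamb2) to 2551 bases (Lamc1). Among 9776 tested genes with an annotated 3′ UTR, 8.31% held the 7-base match.

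Each of the 11 libraries held between 17.9 and 39.7 M counts. Markers of the nephron summed to between 14975 and 17776 CPM (counts per M counts of the library) in every library, and 5 of 6 skeletal muscle markers and 5 of 6 adrenal cortex markers were below 0.5 CPM in all 11. Adipose markers, 5 in number, summed to 13.6 CPM in KO antimiR-21 1, 5.18 in KO PBS 4 and 3.84 in KO antimiR-21 2. In the other libraries that sum was at most 0.62 CPM. The deleted gene and its neighbour Col4a4 share their counts in these files and cannot be told apart. Their joint level was 1065 ± 201 CPM in HET PBS (SD, n = 3), 825 ± 183 in KO PBS and 640 ± 129 in KO antimiR-21 (SD, n = 4 each). Y-linked Ddx3y stood between 89.7 and 109 CPM in 5 libraries (HET PBS 2 and 3, KO PBS 3 and 4, KO antimiR-21 4) and at most at 0.172 CPM in the other 6, and the first principal component, which held 47% of the variance, put these libraries on opposite sides. Only 1 of the 4 KO antimiR-21 libraries had Y-linked reads, so values by this status stand beside the comparisons.

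The chains of the mature glomerular trimer led the family. Levels of different genes were compared as CPM per kilobase of all annotated exons. On that scale Lama5 averaged 26.2 over the 11 libraries, Lamc1 18.4 and Lamb2 16.7, against 5.49 for Lama3, 4.41 for Lama1, 2.09 for Lama2, 1.94 for Lama4 and 1.54 for Lamb3. Every library put Lamb2 above Lama3, and the ranges of these neighbours did not overlap. The other neighbours had overlapping ranges, and Lamc1 stood above Lamb2 in 8 of 11 libraries, Lama2 above Lama4 in 7 of 11 and Lama4 above Lamb3 in 8 of 11, whereas Lama5 stood above Lamc1 in 11 of 11.

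The order depended on the length used. Per kilobase of coding sequence, Lamc1 led with 31.6, followed by Lama5 with 26.7 and Lamb2 with 18.8, and Lama4 (4.31) passed Lama2 (3.65). The annotated exons of Lama2 span 16338 bases, of which 9354 are coding, and those of Lamc1 8272 with 4821 coding. The leading 3 chains were the same on both scales.

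**Figure D1:**
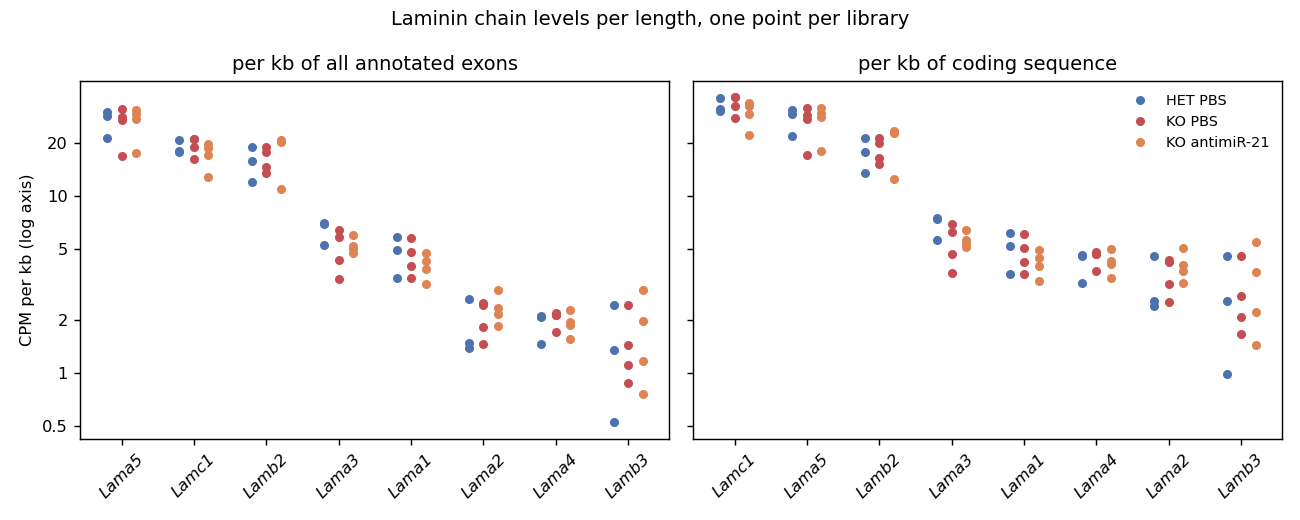
Level of each laminin chain in each library, as CPM per kilobase of all annotated exons (left) and per kilobase of coding sequence (right), on a log axis, with points coloured by group. Lama5, Lamc1 and Lamb2 lie above the other chains on both scales, and the 3 groups overlap for every chain.

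Lama5 supplied most of the alpha chain mRNA in each group. Its share of the summed per-length levels of the 5 alpha chains was 63.9% ± 5.76 in HET PBS (SD, n = 3), 65.1% ± 2.41 in KO PBS and 65.4% ± 6.46 in KO antimiR-21 (SD, n = 4 each), within 56.2% to 70.5% over all libraries. Lama3 came next with 15.6% ± 3.36, 12.7% ± 1.44 and 13.6% ± 3.72 in the same order, and Lama1 with 11.7% ± 3.98, 11.6% ± 1.56 and 10.3% ± 2.54. The group means of the Lama5 share differed by less than the SD of each group, and no test was run on the shares.

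None of the 8 chains differed between groups past an adjusted p of 0.05. Counts were tested by edgeR's quasi-likelihood test with Benjamini-Hochberg adjustment over all 14380 loci. In KO PBS against HET PBS it called 0 of 8 chains (background 0% of loci), in KO antimiR-21 against KO PBS 0 of 8 (background 0%), in KO antimiR-21 against HET PBS 0 of 8 (background 0.00695%), and in all 8 knockout libraries against HET PBS 0 of 8 (background 0.0139%). These comparisons share groups with each other. At an unadjusted p under 0.05 the count was also 0 of 8 in each, where 6.94%, 8.21%, 8.05% and 7.39% of loci passed, in the same order. DESeq2 called 0 of 8 in each as well, against 0.584%, 0.876%, 0.515% and 0.716% of loci. The ranges of the groups overlapped for all 8 chains in each comparison, where 6.76%, 4.28%, 5.98% and 1.6% of loci had ranges that did not overlap.

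The median log2 difference of the 8 chains was 0.03 in KO PBS against HET PBS, 0.05 in KO antimiR-21 against KO PBS, -0.00 in KO antimiR-21 against HET PBS and 0.01 in all knockouts against HET PBS. Over all loci tested the medians were -0.015, 0.004, -0.002 and -0.012. Signs were mixed: 5 chains were above 0 and 3 below in each of the first 2 comparisons, and 4 and 4 in each of the other 2.

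**Figure D2:**
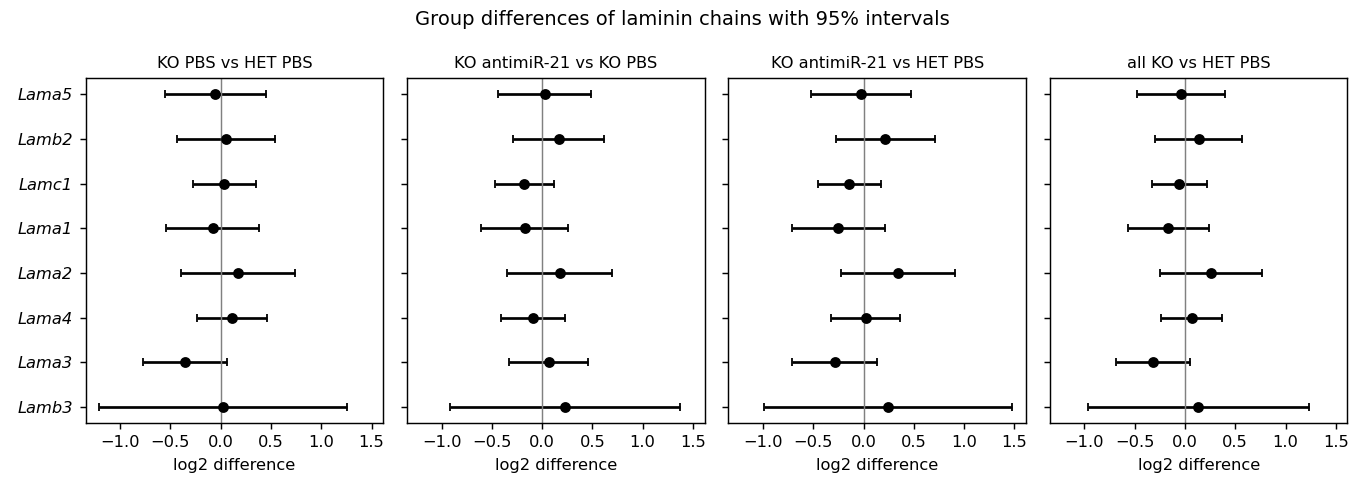
Log2 difference of each laminin chain (point) with its 95% interval (bar) in the 4 comparisons, from edgeR's quasi-likelihood fit. Every interval includes 0, the widest belong to Lamb3, and Lama3 lies farthest below 0 in KO PBS against HET PBS, at -0.35.

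Lama5 (chr2:180176373-180225859, minus strand, 79 exons in its longest coding transcript), the alpha chain of the mature trimer, measured 341, 326 and 245 CPM in HET PBS 1 to 3. It measured 306, 192, 320 and 353 CPM in KO PBS 1 to 4 and 312, 351, 331 and 199.7 CPM in KO antimiR-21 1 to 4. KO PBS 2 and KO antimiR-21 4 were the low libraries and HET PBS 3 the next, so each group held 1 library well below its others, and the groups overlapped. The log2 difference of KO PBS from HET PBS was -0.05 (SE 0.228, adjusted p = 0.969 by edgeR), with a 95% interval of 0.682 to 1.36 for the fold. That of KO antimiR-21 from KO PBS was 0.03 (SE 0.211, adjusted p = 0.988), with a fold interval of 0.739 to 1.40.

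Lamb2 (chr9:108479736-108490530, plus strand, 33 exons), the beta chain of the mature trimer, measured 115, 96.1 and 73.4 CPM in HET PBS. It measured 115, 82.0, 88.5 and 108 CPM in KO PBS and 123, 127, 124 and 67.2 CPM in KO antimiR-21. KO antimiR-21 1 to 3 were the highest 3 of all 11 libraries and KO antimiR-21 4 the lowest, so this group enclosed both others. The log2 difference of KO antimiR-21 from KO PBS was 0.17 (SE 0.206, adjusted p = 0.894 by edgeR), and without KO antimiR-21 4 it was 0.33. That of KO antimiR-21 from HET PBS was 0.22, and 0.39 without that library (adjusted p = 0.244).

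Lamc1 (chr1:153218922-153332786, minus strand, 28 exons), the gamma chain shared by most laminins, measured 172, 149 and 147 CPM in HET PBS. It measured 175, 134, 156 and 175 CPM in KO PBS and 141, 156, 162 and 106.5 CPM in KO antimiR-21. It had the narrowest spread of the 8, with a coefficient of variation of 13.4% over the 11 libraries, and KO antimiR-21 4 was again lowest. Its smallest unadjusted p was 0.209, in KO antimiR-21 against KO PBS, for a log2 difference of -0.18 (SE 0.133, adjusted p = 0.789), with a fold interval of 0.723 to 1.08.

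**Figure D3:**
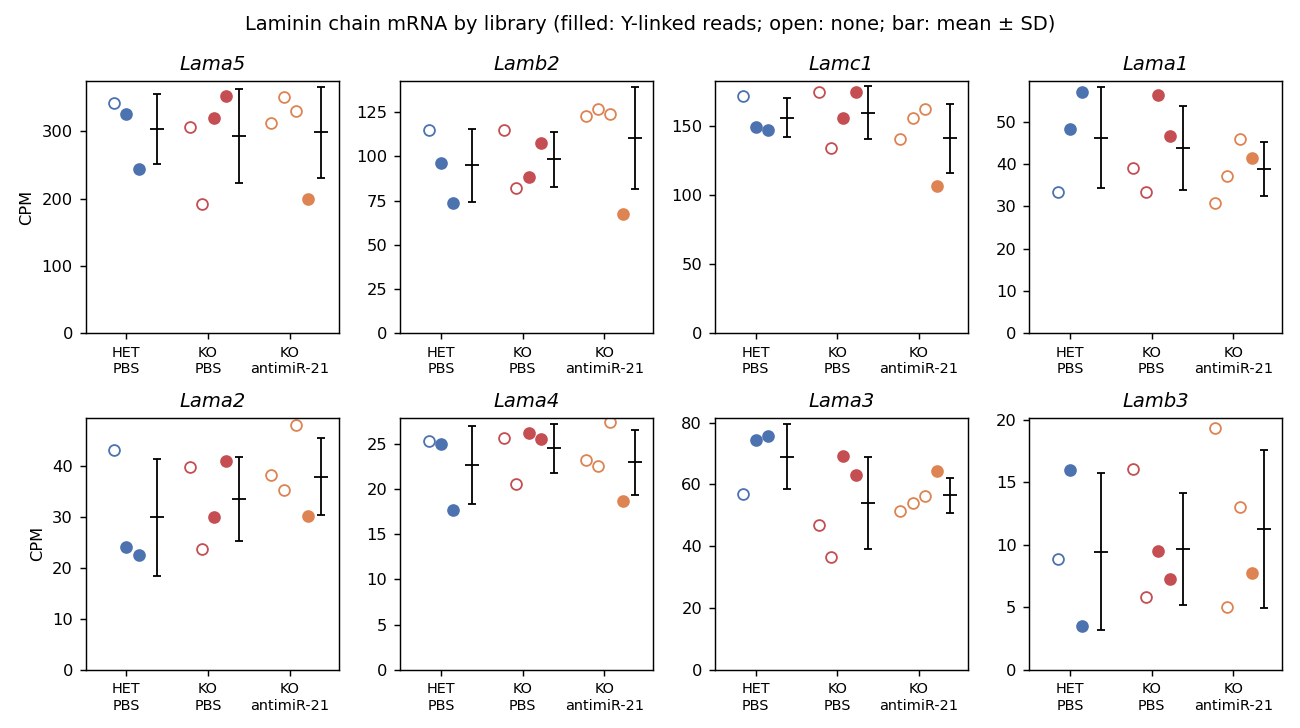
CPM of each laminin chain in every library, by group, with filled points for libraries with Y-linked reads, open points for those without, and the group's mean ± SD beside them. The groups overlap for all 8 chains, and filled points lie above open ones for Lama1 and Lama3 in HET PBS and KO PBS.

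Lama1 (chr17:67697259-67822647, plus strand, 63 exons), the alpha chain of the embryonic glomerulus that persists in tubule basement membranes, measured 33.4, 48.3 and 57.2 CPM in HET PBS. It measured 39.0, 33.4, 56.3 and 46.8 CPM in KO PBS and 30.8, 37.3, 46.0 and 41.5 CPM in KO antimiR-21. High values belonged to libraries of each group, and the log2 differences were -0.08 in KO PBS against HET PBS (SE 0.211, adjusted p = 0.952) and -0.17 in KO antimiR-21 against KO PBS (SE 0.196, adjusted p = 0.878). With Y-linked status as a term the latter was -0.04 (SE 0.141, adjusted p = 0.963), and without KO PBS 3 it was -0.03. The ratio of Lama1 to Lama5 per length was 0.188 ± 0.0810 in HET PBS, 0.179 ± 0.0306 in KO PBS and 0.162 ± 0.0585 in KO antimiR-21 (SD, n = 3, 4 and 4). The highest ratios were those of HET PBS 3 (0.275) and KO antimiR-21 4 (0.244), both low in Lama5.

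Lama2 (chr10:26980036-27619758, minus strand, 65 exons), the alpha chain of muscle and mesangial laminin, measured 43.0, 24.0 and 22.5 CPM in HET PBS. It measured 39.7, 23.6, 29.9 and 40.8 CPM in KO PBS and 38.2, 35.2, 47.9 and 30.2 CPM in KO antimiR-21. Every KO antimiR-21 library was above HET PBS 2 and 3, and HET PBS 1 was above all of them but KO antimiR-21 3. The log2 difference of KO antimiR-21 from HET PBS was 0.34 (SE 0.259, adjusted p = 0.662 by edgeR). Without HET PBS 1 it was 0.70 (adjusted p = 0.195), the lowest adjusted p of any chain under any alternative. Lama2 shares 631 exonic bases with Gm48084 on the other strand, and since the library kit does not mark strand, their reads cannot be told apart.

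Lama4 (chr10:38965515-39110188, plus strand, 38 exons), the alpha chain of vascular laminin, had a coefficient of variation of 13.8%. It measured 25.3, 25.0 and 17.7 CPM in HET PBS, 25.7, 20.5, 26.3 and 25.6 CPM in KO PBS, and 23.3, 22.5, 27.4 and 18.7 CPM in KO antimiR-21. HET PBS 3, KO antimiR-21 4 and KO PBS 2 were its 3 lowest libraries, the same that were lowest in Lama5. The log2 difference of KO PBS from HET PBS was 0.11 (SE 0.158, adjusted p = 0.899 by edgeR), with a fold interval of 0.852 to 1.37.

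Lama3, the alpha chain of the epithelial anchoring laminin, had the largest difference of the 8 chains in KO PBS against HET PBS and in all knockouts against HET PBS, and neither passed. It measured 56.8, 74.4 and 75.6 CPM in HET PBS, 46.9, 36.6, 69.2 and 63.0 CPM in KO PBS, and 51.4, 53.9, 56.2 and 64.4 CPM in KO antimiR-21. KO PBS 1 and 2 were lowest, and HET PBS 2 and 3 were above all 8 knockout libraries, while HET PBS 1 lay among them. The log2 difference of KO PBS from HET PBS was -0.35 (SE 0.192, 95% interval -0.77 to 0.07, unadjusted p = 0.0918, adjusted p = 0.766 by edgeR), and that of all knockouts from HET PBS was -0.32 (SE 0.168, adjusted p = 0.715). Without KO PBS 2, its lowest library, the difference of KO PBS was -0.19 (adjusted p = 0.849), smaller than those of Lama2 (0.32), Lamb3 (0.21) and Lama4 (0.20), and leaving out each library in turn gave -0.50 to -0.19. It was below 0 in KO PBS against HET PBS both among libraries without Y-linked reads (-0.44) and among those with them (-0.15), and with that status as a term it was -0.30 (SE 0.102, unadjusted p = 0.0126, adjusted p = 0.361). Lama3 shares 197 exonic bases with the antisense gene Gm29200.

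Lamb3 (chr1:193207699-193343878, plus strand), the beta chain of the same anchoring laminin, was the least abundant and the most uneven chain. It measured 8.88, 16.0 and 3.47 CPM in HET PBS, 16.0, 5.81, 9.52 and 7.30 CPM in KO PBS, and 19.3, 5.03, 13.1 and 7.71 CPM in KO antimiR-21, a range of 5.58-fold. High and low libraries occurred in each group. The log2 difference of KO PBS from HET PBS was 0.02 (SE 0.556, adjusted p = 0.997 by edgeR), with a fold interval of 0.432 to 2.38, the widest of the 8 chains. The genes Hsd11b1 and G0s2 lie inside its span on the other strand without sharing exonic bases.

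Lama1 and Lama3 differed by Y-linked status. With group in the model, libraries with Y-linked reads were 0.44 higher on the log2 scale in Lama1 (SE 0.126, 95% interval 0.16 to 0.71, adjusted p = 0.0325 by edgeR) and 0.47 higher in Lama3 (SE 0.0866, 95% interval 0.28 to 0.65, adjusted p = 0.00277). Of the 8 chains 2 were called, where 17.9% of all loci were called and 11.1% were higher with Y-linked reads. Lama3 ran from 63.0 to 75.6 CPM in the 5 libraries with Y-linked reads and from 36.6 to 56.8 CPM in the 6 without, and these ranges did not overlap. The share of all loci without overlap by this status was not counted, so the separation has no background. Lama1 ran from 41.5 to 57.2 CPM with and from 30.8 to 46.0 CPM without, and KO antimiR-21 3 and 4 were where these ranges met.

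The other 6 chains did not pass for Y-linked status. Lamb2 was -0.39 on the log2 scale (SE 0.158, unadjusted p = 0.0342, adjusted p = 0.118 by edgeR), Lama2 -0.32 (adjusted p = 0.298), Lamb3 -0.33 (adjusted p = 0.698), Lamc1 -0.17 (adjusted p = 0.288), Lama4 -0.11 (adjusted p = 0.573) and Lama5 -0.10 (adjusted p = 0.776). All 6 were lower with Y-linked reads.

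**Figure D4:**
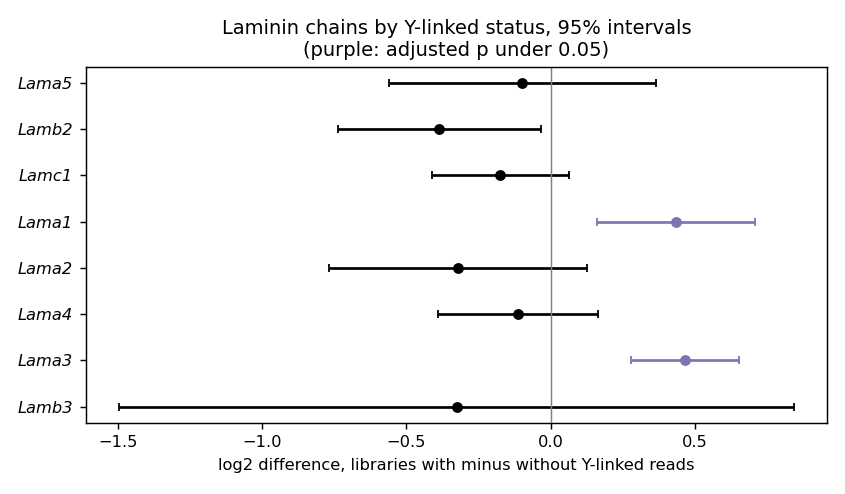
Log2 difference of each laminin chain between libraries with and without Y-linked reads (point) with its 95% interval (bar), from a fit that also holds the 3 groups. Lama1 and Lama3, in purple, lie above 0 at 0.44 and 0.47 with adjusted p under 0.05, and the other 6 chains lie below 0.

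In KO antimiR-21 against KO PBS, 7 of the 8 chains gave opposite signs in the libraries with and without Y-linked reads, Lamc1 being the exception. The share of all loci that did so was not counted, so this number has no background. Where Y-linked reads were lacking, the log2 differences of KO antimiR-21 from KO PBS were 0.40 for Lama5, 0.33 for Lamb2 and -0.02 for Lamc1. Among libraries with them, where KO antimiR-21 4 stands alone, they were -0.77, -0.56 and -0.65. The difference between the 2 sets was -1.17 for Lama5 (SE 0.326), -0.88 for Lamb2 and -0.62 for Lamc1, in edgeR's test of the interaction. Outside the trimer it was -0.58 for Lama2, -0.55 for Lama4, -0.40 for Lama3, -0.39 for Lama1 and -0.31 for Lamb3. The sign was thus shared by all 8 chains. How many of all loci had that sign was not counted, so this number has no background either. None of the chains passed after adjustment, and no other locus did. The interaction rests on 1 treated library.

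Several chains varied together from library to library, those of the mature trimer among them. Pearson's r of log2 CPM over the 11 libraries was 0.81 between Lama5 and Lamb2, 0.80 between Lama5 and Lamc1 and 0.70 between Lamb2 and Lamc1, and after subtracting group means these were 0.85, 0.89 and 0.92. Spearman's rank correlation over the 11 libraries was lower, at 0.68, 0.71 and 0.48 for the same pairs. Relative to the 11-library mean on the log2 scale, KO antimiR-21 4 stood at -0.55 in Lama5, -0.57 in Lamb2 and -0.50 in Lamc1, and KO PBS 2 at -0.60, -0.28 and -0.17. This was not limited to the trimer, since Lama4 correlated with Lama5 at 0.79, with Lamb2 at 0.74 and with Lamc1 at 0.72, and Lama2 with Lamb2 at 0.77 (Pearson's r). By rank these were 0.51, 0.48, 0.76 and 0.70. Lama1 and Lama3 correlated with each other at 0.77, and neither followed Lama5 (r = 0.08 and 0.27). These are descriptions over libraries that share their depth scaling and base composition.

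**Figure D5:**
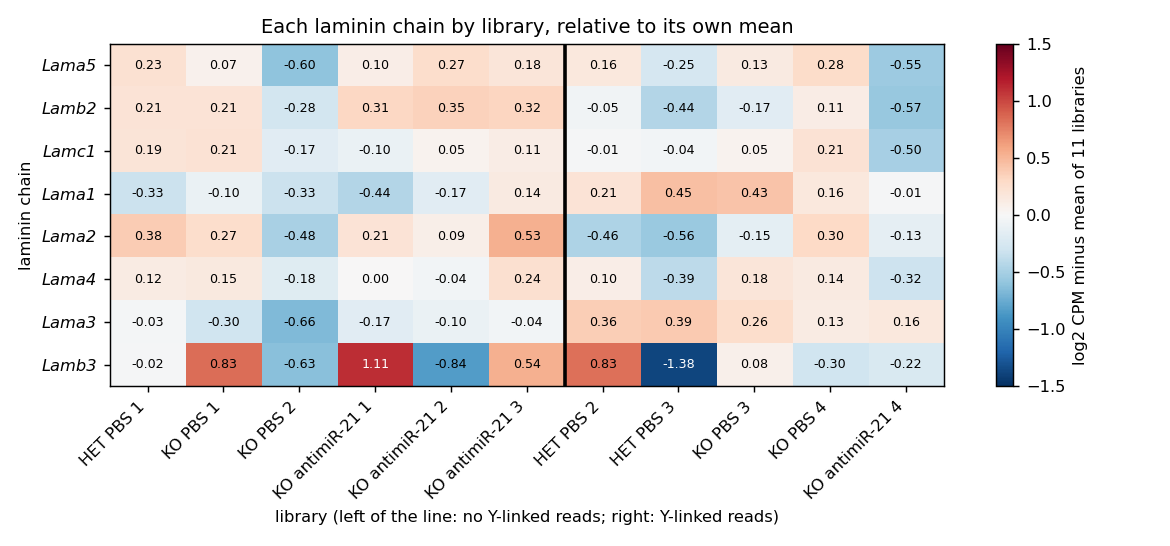
Log2 CPM of each laminin chain in each library minus the mean of that chain over the 11 libraries, in colour and digits, with libraries lacking Y-linked reads left of the line and those with them right of it. Lama5, Lamb2 and Lamc1 are all low in KO PBS 2 and KO antimiR-21 4, while Lama1 and Lama3 are mostly above 0 right of the line.

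Base composition moved with some of these values. Lama5 mRNA is 59.9% G and C, above 95.3% of the loci tested that have a value, and Lamb2 58.8%, above 92.8%. Across genes, the rank correlation between a library's deviation from the mean and GC content ran from -0.266 in HET PBS 3 to 0.193 in KO antimiR-21 2, with -0.0984 for KO antimiR-21 4 and -0.0362 for KO PBS 2. After each library's dependence on GC content was subtracted, r was 0.77 between Lama5 and Lamb2, 0.79 between Lama5 and Lamc1 and 0.66 between Lamb2 and Lamc1, and 0 of 8 chains were called in each comparison.

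Markers of kidney cell types moved with some chains, and in whole tissue fewer cells of a type and less RNA per cell cannot be told apart. The mean log2 level of 7 mesangial and smooth muscle markers with a row correlated with Lamb2 at r = 0.88, and that of 8 endothelial markers with Lamb2 at 0.82 and with Lama2 and Lama4 at 0.73. The summed mesangial and smooth muscle markers ran from 200 to 293 CPM in HET PBS, from 238 to 328 in KO PBS and from 193 to 336 in KO antimiR-21, with KO antimiR-21 4 lowest. The 9 podocyte markers with a row summed to 770 to 911, 862 to 1085 and 807 to 1171 CPM, and their mean correlated with Lama3 at -0.80. With the chains of the mature trimer that mean correlated at 0.19 for Lama5, 0.68 for Lamb2 and 0.22 for Lamc1. The 8 fibroblast markers summed to 415 to 707, 738 to 1512 and 651 to 1085 CPM, and their mean correlated with Lama2 at 0.76. These values were picked from many pairs of a list and a chain. The skeletal muscle list, with 5 of 6 markers below 0.5 CPM in all libraries, correlated with Lama1 at -0.78. Its mean used only loci that passed the count filter, so this r rested mainly on the remaining marker, Mylpf. An r of this size thus also arose where most markers of a list were hardly detected. The part of any cell type in these chain levels was not tested.

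The loci most like each chain over the 11 libraries, among named loci of at least 5 CPM, were found by Pearson's r. For Lamb2 they were Pacs1 (0.99) and Ltbp4 (0.98), and they included Gabbr1 for Lama5 (0.98) and Cad for Lamc1 (0.95). For Lama2 they were Pdgfrb, the receptor of mural cells (0.95), and Tbc1d4 (0.95), and for Lama4 Ltbp1 (0.98) and Gpr116 (0.93). For Lama1 they were Tab3 (0.98) and Neo1 (0.97), for Lama3 Snx19 (0.96) and Zfp81 (0.94), and for Lamb3 Gem (0.95) and Gpr110 (0.95).

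Laminins are bound by other basement membrane proteins and by cell surface receptors, and no gene of either list was called (edgeR, adjusted). Of 20 partners in the basement membrane, 17 loci were tested. In KO PBS against HET PBS 14 were above 0 and 3 below, with a median log2 difference of 0.07, and 1 of the 17 was higher at an unadjusted p under 0.05, beside 4.21% of all loci. In KO antimiR-21 against KO PBS 2 were above 0 and 15 below, with a median of -0.18 beside 0.00 for all loci, and 4 of the 17 were lower at an unadjusted p under 0.05, beside 3.46% of all loci. These comparisons share the KO PBS libraries. Frem1, of the Fraser complex at epithelial basement membranes, was 11.4 ± 4.40 CPM in HET PBS, 21.1 ± 5.94 in KO PBS and 17.8 ± 6.01 in KO antimiR-21 (SD), with a log2 difference of 0.77 in all knockouts against HET PBS (adjusted p = 0.625). The joint Col4a3/Col4a4 locus was -0.55 in the same comparison (adjusted p = 0.553).

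Of 12 receptors, 11 were tested, and 8 were above 0 and 3 below in all knockouts against HET PBS, with a median log2 difference of 0.09. The smallest p belonged to the syndecan Sdc1, at 0.46 (SE 0.148, unadjusted p = 0.00886, adjusted p = 0.553 by edgeR), with 16.2 ± 1.79 CPM in HET PBS, 23.4 ± 5.81 in KO PBS and 21.5 ± 1.37 in KO antimiR-21 (SD). Next was Bcam, a receptor of Lama5, at 0.33 (adjusted p = 0.724). Of 4 other laminin-type chains, 3 were tested and 2 were above 0. Ntn4, a netrin that binds laminin, was at 0.21 (unadjusted p = 0.0416, adjusted p = 0.663).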

How the data were processed

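The mRNA of whole kidneys was sequenced as 11 libraries made with TruSeq RNA v2, a kit that does not mark strand, per the labels' protocols. The submitters' processing notes list HTSeq 0.5.4p5, STAR, SAMtools, FastQC and limma, with mm10 as the build. Which annotation and which counting settings served is not given in the sources used here. Each deposited file of a library holds estimated counts per gene, not normalized, in steps of 0.5, per the file headers and values (47.4% of nonzero values were not whole). A log2 matrix of all libraries, also deposited by the authors, entered only as an alternative.

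Of the 24914 rows, 1513 pairs of names with identical counts in every library (total at least 50) were joined, leaving 23401 loci; none of the chains is in a joint locus. Total counts were 22.4 to 49.7 M as deposited and 17.9 to 39.7 M after joining. Counts were rounded and tested with edgeR 4.0.16 (R 4.3.3), after filterByExpr (14380 loci, 1502 of them joint) and TMM scaling, in a quasi-likelihood model of all 11 libraries in 3 groups, two-sided, with Benjamini-Hochberg adjustment at 0.05. DESeq2 1.42.0 and limma 3.58.1 served as alternatives, with another scaling, other filters, the deposited rows, Y-linked status (Ddx3y above 5 CPM), the replicate block and each library left out. Correlations used log2 CPM with a prior count of 2. The scripts were tested on simulated data. Gene models are GENCODE vM21 on GRCm38 and may differ from those used for counting.

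The chains, gene lists and rules were chosen with earlier results of these data known. All chains are named, with the 2 genes of each pathway list that had the smallest p in all knockouts against HET PBS, the 2 loci most alike to each chain, and Ddx3y and Col4a3 as checks. Results of some genes that these rules take are left out of the text.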

Additional observations from a re-analysis of the deposited data

Results flagged for a closer look

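In each group of 4 libraries, the highest and lowest value of each chain and of each chain ratio was compared with the nearest other value by Dixon's criterion at 95%. Chance flags about 1 in 20 such groups, and 3 of 26 were flagged here. Lama4 was 20.5 CPM in KO PBS 2, apart from 25.6 to 26.3 CPM in the other 3 libraries. The other values came from KO antimiR-21 4, the only treated library with Y-linked reads: Lamb2 was 67.2 CPM against 123 to 127 CPM in the others, and the ratio of Lama3 to Lama5 per length was 0.342 against 0.163 to 0.180.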

How the results depend on the processing

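No chain passed an adjusted p of 0.05 in any comparison under any of the 728 alternative values of its 32 log2 differences; 659 kept their sign and 69 turned it (42 of the 632 that did not come from the choices added later), and the lowest adjusted p was 0.195. All signs turned belong to fits by Y-linked status or with a library left out, and the cause was not tested. The fits within sets of libraries and the GC correction were chosen after seeing the data. Among libraries without Y-linked reads, log2 differences turned sign in KO PBS against HET PBS for Lama1 (0.12), Lama2 (-0.43), Lama4 (-0.13), Lamb2 (-0.22) and Lamc1 (-0.15), in KO antimiR-21 against KO PBS for Lama1 (0.065) and Lama4 (0.072), in KO antimiR-21 against HET PBS for Lama1 (0.19), Lama2 (-0.092) and Lama4 (-0.053), and in all knockouts against HET PBS for Lama1 (0.15), Lama2 (-0.26), Lama4 (-0.089) and Lamb2 (-0.052). Among those with Y-linked reads they turned, in the same order of comparisons, for Lama1 (0.0028), Lama5 (0.28) and Lamb3 (-0.20), for Lama2 (-0.25), Lama3 (-0.054), Lama5 (-0.77), Lamb2 (-0.56) and Lamb3 (-0.14), for Lama4 (-0.18), Lamb2 (-0.32) and Lamb3 (-0.34), and for Lamb2 (-0.036) and Lamb3 (-0.27). With Y-linked status as a term, Lama1 (0.00094) and Lamb3 (-0.066) turned in KO PBS against HET PBS, Lama5 (-0.014) in KO antimiR-21 against KO PBS and Lama4 (-0.030) in KO antimiR-21 against HET PBS. Leaving out 1 library at a time gave, in KO PBS against HET PBS, ranges of -0.27 to 0.12 for Lama1, -0.024 to 0.20 for Lama4, -0.18 to 0.12 for Lama5, -0.092 to 0.21 for Lamb2, -0.36 to 0.65 for Lamb3 and -0.012 to 0.13 for Lamc1. In KO antimiR-21 against KO PBS the ranges were -0.093 to 0.21 for Lama3, -0.14 to 0.16 for Lama5 and -0.17 to 0.58 for Lamb3, and in KO antimiR-21 against HET PBS -0.13 to 0.11 for Lama4, -0.16 to 0.13 for Lama5 and -0.15 to 0.86 for Lamb3. In all knockouts against HET PBS they were -0.35 to 0.022 for Lama1, -0.078 to 0.15 for Lama4, -0.17 to 0.051 for Lama5, -0.016 to 0.30 for Lamb2, -0.25 to 0.76 for Lamb3 and -0.093 to 0.021 for Lamc1. The number of all loci called was 0, 0, 1 and 2 in the order KO PBS against HET PBS, KO antimiR-21 against KO PBS, KO antimiR-21 against HET PBS and all knockouts against HET PBS. DESeq2 called 84, 126, 74 and 103, limma-voom 0 in each, limma on the deposited log2 values 3, 0, 2 and 4, the fit with Y-linked status 3, 0, 2 and 4, the GC-corrected values 1, 0, 2 and 3, and the fits within libraries with or without Y-linked reads 0 in each. Leaving out 1 library gave 0 to 2, 0 to 16, 0 to 4 and 0 to 4. With the replicate number as a block the counts were 2, 26, 4 and 5, with 0 of 8 chains called; of the 10 pairs of libraries with the same number in different groups, the deviations of 6 correlated positively, up to 0.63, and of 4 negatively, down to -0.44, and each positive pair shared its Y-linked status while each negative pair did not. The numbers were therefore not taken to pair the samples. Lamb3 has the fewest counts, 77.5 to 583 per library, and its intervals were the widest of the 8 chains. What sets that width was not tested.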
